A study of Drosophila melanogaster with 2 samples.

Results

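The genes described here encode the subunits of Mediator and of TFIID that carry a MED or Taf symbol in Drosophila melanogaster. All protein-coding genes whose symbol is MED or Taf followed by a number and at most 1 letter were taken, which gave 40 of the 13945 protein-coding genes on 6 chromosome arms: 25 MED genes and 15 Taf genes. What was measured is binding of the chromatin protein ADD1 at these genes, by chromatin immunoprecipitation and sequencing (ChIP-seq). The embryos came from a stable transgenic line that expresses ADD1 with GFP fused to the C terminus, and the fusion protein was pulled down with an antibody against GFP. There was 1 group, whole embryos aged 0 to 24 h of both sexes together, with 2 biological replicates. Both replicates came from 1 line and mix all cell types and all stages of embryonic development, and expression of the genes was not measured.

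Mediator is a large complex that passes signals from transcription factors bound at enhancers to RNA polymerase II at the promoter. Its subunits are grouped into a head and a middle that contact the polymerase, a tail that meets activators, and MED14, a backbone that joins them. TFIID contains the TATA-binding protein and its associated factors, the TAFs, and it is the first general factor to recognise a core promoter. Many TAFs pair through histone folds, and several of them also belong to the coactivator SAGA. ADD1 has an ADD domain, a fold that reads histone H3 tails, and it is a known partner of HP1a, a protein of heterochromatin. The rule by symbol leaves out subunits with other names, such as skd and kto of the Mediator kinase module and Tbp itself, and it takes in Taf12L, a relative of Taf12 known from the male germ line.

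Binding was read from the authors' peak lists. A peak is an interval with an excess of sequenced fragments, and its summit is the position of highest excess. The authors kept 7944 peaks that met their threshold on the irreproducible discovery rate (IDR), a measure of how well the ranks of peaks repeat between replicates. They also deposited a list of 30000 peaks for each replicate and 1 of 30000 peaks called on both together, named the joint list here. The IDR peaks were the 7944 strongest of the joint list. Each peak carries the authors' signal, on a scale that is not stated, which ran from 130 to 9003 in the IDR list with a median of 243. Rank 1 is the strongest signal of a list. A gene was counted as having a promoter peak where a summit lay within 500 bp of any of its annotated starts. The offset is the distance from that start to the summit, negative upstream. The number of reads was unknown, so a missing peak may lie below detection.

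An IDR promoter peak was present at 17 of the 40 subunit genes. This was 42.5%, with an exact Clopper-Pearson 95% interval of 27.0 to 59.1 that covers counting error only. The same held for 26.1% of all protein-coding genes (3638 of 13945). Mediator had 10 of 25 genes (interval 21.1 to 61.3%) and TFIID 7 of 15 (21.3 to 73.4%), so the intervals of both complexes include the share of all genes. In the joint list 20 of the 40 subunit genes had a promoter summit, against 37.9% of all protein-coding genes. Among the 7944 strongest peaks of replicate 1 the share was 45.0% of the subunit genes, against 25.8% of all. Among those of replicate 2 it was 42.5%, against 29.0%. The mean over replicates was 43.8% ± 1.77 for the subunit genes and 27.4% ± 2.28 for all protein-coding genes (SD, n = 2). The difference between the gene sets was larger than this spread. The spread measures how far the replicates repeat on the same genes, and not the uncertainty of a share over 40 genes. Requiring both replicates left 14 subunit genes (35.0%), against 21.8% of all.

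A summit can lie within 500 bp of several genes, and this bears on the count. When each summit was given only to its nearest start, 11 of the 40 subunit genes had an IDR peak (27.5%, 14.6 to 43.9), against 21.7% of all protein-coding genes. At 6 of the 17 genes the nearest start belonged to another gene: MED27, MED30, MED4, Taf10, Taf12 and Taf13. The own start was nearest at 64.7% of the subunit genes with a peak, against 83.2% of all protein-coding genes with one. With 1 group and no second condition, no test over samples can be made of these shares. They are given as descriptions of these lists.

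**Figure D1:**
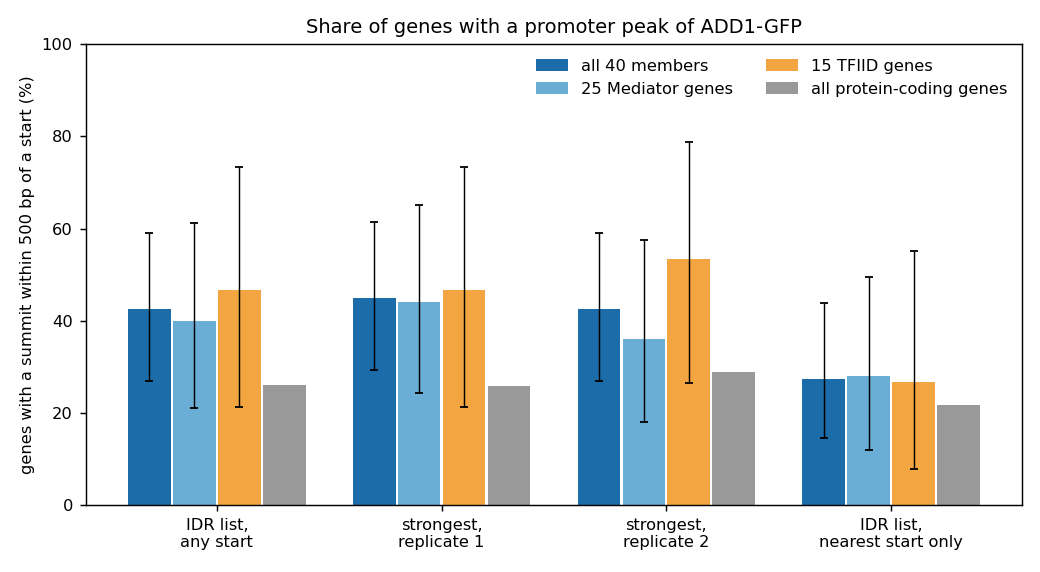
Share of genes with a summit within 500 bp of a start, in percent, for all 40 subunit genes, the 25 Mediator genes, the 15 TFIID genes and all protein-coding genes, in 4 ways of counting. Error bars are exact 95% intervals. The bar of all 40 genes stands at 42.5% in the IDR list and at 27.5% when a summit counts only for its nearest start, next to 26.1% and 21.7% of all protein-coding genes.

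The head of Mediator had peaks at 2 of 7 genes (28.6%, interval 3.67 to 71.0), against 26.1% of all protein-coding genes. MED6, which holds the head to the middle, had an IDR peak (3R, 9767698 to 9767944) of signal 674 and rank 777, with the summit 7 bp upstream of a start. That start is 1 of 5 annotated for MED6 and lies inside the annotated span of the gene, and with 1 start per gene MED6 had no peak. The peak ranked 798 in replicate 1 and 905 in replicate 2. A start of Naa80, which encodes the acetyltransferase that modifies actin, lay 12 bp from the same summit. MED17, the central scaffold of the head, had a peak (3R, 18188934 to 18189174) of signal 385 and rank 2122 with its summit 9 bp upstream, ranked 2438 in replicate 1 and 1852 in replicate 2. The other head genes, MED8, MED11, MED18, MED20 and MED22, had no IDR peak.

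The middle had peaks at 6 of 9 genes (66.7%, interval 29.9 to 92.5), against 26.1% of all protein-coding genes. The backbone MED14 had none. MED4, which pairs with MED9 in the middle, had the strongest (3L, 7250502 to 7250823) with signal 726 and rank 664, ranked 688 in replicate 1 and 746 in replicate 2. Its summit lay 148 bp upstream of MED4 and 35 bp from the start of the noncoding antisense gene asRNA:CR43470. MED7 and MED21 encode partners in a long hinge of the middle. The peak at MED21 (3L, 25115870 to 25116101, signal 436) ranked 1719, against 1255 in replicate 1 and 3554 in replicate 2. The peak at MED7 (3R, 10760977 to 10761212, signal 344) ranked 2535 and 1583 in replicate 1, and replicate 2 had no summit within 500 bp of that gene. MED7 was the only subunit gene with an IDR peak and no such summit in replicate 2. The list of replicate 2 stops at a fixed length, so this does not show that replicate 2 lacked signal there. MED19, which is known to contact REST in mammals and Hox proteins in flies, had a peak (3L, 17846431 to 17846663, signal 341) with its summit 5 bp upstream of the start, of rank 3096 in replicate 1 and 2166 in replicate 2.

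MED26 and MED31, also counted in the middle, stood lower. MED26, which in mammals helps to recruit elongation factors, was the one subunit gene with a pair of IDR peaks in its promoters, both on chromosome 4. The first (787436 to 787745, signal 260, rank 3670) had its summit 23 bp after a start, and ranked 3138 in replicate 1 and 5374 in replicate 2. The second (788429 to 788611, signal 246, rank 3916) lay 427 bp after another start. MED31 had the weakest peak of all (3R, 4641826 to 4642005, signal 170, rank 5964), ranked 4735 in replicate 1 and 8073 in replicate 2. MED31 shares its annotated start with slx1, which encodes a subunit of a structure-specific nuclease, so their values cannot be told apart. The middle genes without an IDR peak were MED1, MED9 and MED10.

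The tail had peaks at 2 of 8 genes (interval 3.19 to 65.1%), against 26.1% of all protein-coding genes, a share inside that interval. Neither summit was nearest to the Mediator gene. MED30 had the strongest peak of all subunit genes (3L, 654055 to 654474) with signal 1127 and rank 273, ranked 212 in replicate 1 and 524 in replicate 2, and 96.6% of the IDR peaks were weaker. Its summit lay 207 bp upstream of MED30 and 67 bp from the start of Rev1, a translesion DNA polymerase. At MED27 the summit (3R, 5654793 to 5655154, signal 357, rank 2408) lay 283 bp upstream and 5 bp from the start of elm. It ranked 2434 in replicate 1 and 1898 in replicate 2. The replicates placed that summit 144 bp apart, the widest disagreement among the subunit genes. No IDR peak lay at MED15, MED16, MED23, MED24, MED25 or MED28.

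In TFIID, 5 of 8 listed histone-fold genes had a peak (62.5%, interval 24.5 to 91.5), against 26.1% of all protein-coding genes. None of Taf1, Taf2, Taf5 and Taf7 did (interval 0 to 60.2%), and the 2 intervals overlap. Taf3 and Taf9, also histone-fold proteins but outside that list, had a peak as well, and Taf12L did not. Taf10 and Taf10b, which arose by duplication and sit head to head, share 1 peak (2L, 2767833 to 2767918) of signal 265 and rank 3591. Its summit lay 1 bp into Taf10b and 46 bp upstream of Taf10, and it ranked 5306 in replicate 1 and 2955 in replicate 2. The peak at Taf3 (chromosome 4, 466791 to 466931, signal 257) ranked 3720, with ranks of 4366 in replicate 1 and 3352 in replicate 2. Taf3 and MED26 are the subunit genes of chromosome 4, where 57.5% of all protein-coding genes had an IDR promoter peak.

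The remaining TFIID peaks were close to each other in strength. Taf13, which pairs with Taf11, had signal 187 and rank 5381 (2L, 20093790 to 20094099), and its rank was 4238 in replicate 1 and 8811 in replicate 2. Taf12, the partner of Taf4, had signal 185 and rank 5455 (3R, 11679666 to 11679787), and ranked 5807 in replicate 1 and 6190 in replicate 2. Taf9, the partner of Taf6, had signal 184 and rank 5480 (X, 17842039 to 17842184), and ranked 5018 in replicate 1 and 7641 in replicate 2. Taf8, the partner of Taf10, had signal 183 and rank 5511 (X, 18101917 to 18102008). It ranked 5716 in replicate 1 and 5954 in replicate 2, and its summit lay 6 bp after the start. All TFIID peaks were thus weaker than all Mediator peaks except those of MED26 and MED31. The partners Taf4, Taf6 and Taf11 had no IDR peak.

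Taking the strongest peak of each gene gave 16 separate summits, which leaves out the second peak of MED26 and counts that of Taf10 and Taf10b once. The signal over them had a median of 303 and a range of 170 to 1127, against a median of 323 at the 2935 promoter peaks of all protein-coding genes. With the second MED26 peak added, the median over 17 summits was 265. Of the 16, 8 were above the median of all promoter peaks. Their width had a median of 235 bp, against 242 bp. The authors' −log10 q-value was 4.13 at all of them, its highest value in the list, so it does not order them. Both replicates had a summit within 200 bp at 15 of the 16 peaks. The replicates placed these a median of 18 bp apart (1 to 144 bp), against 18 bp at 2774 promoter peaks of all protein-coding genes. Replicate 1 ranked 10 of the 15 higher and replicate 2 ranked 5 higher.

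**Figure D2:**
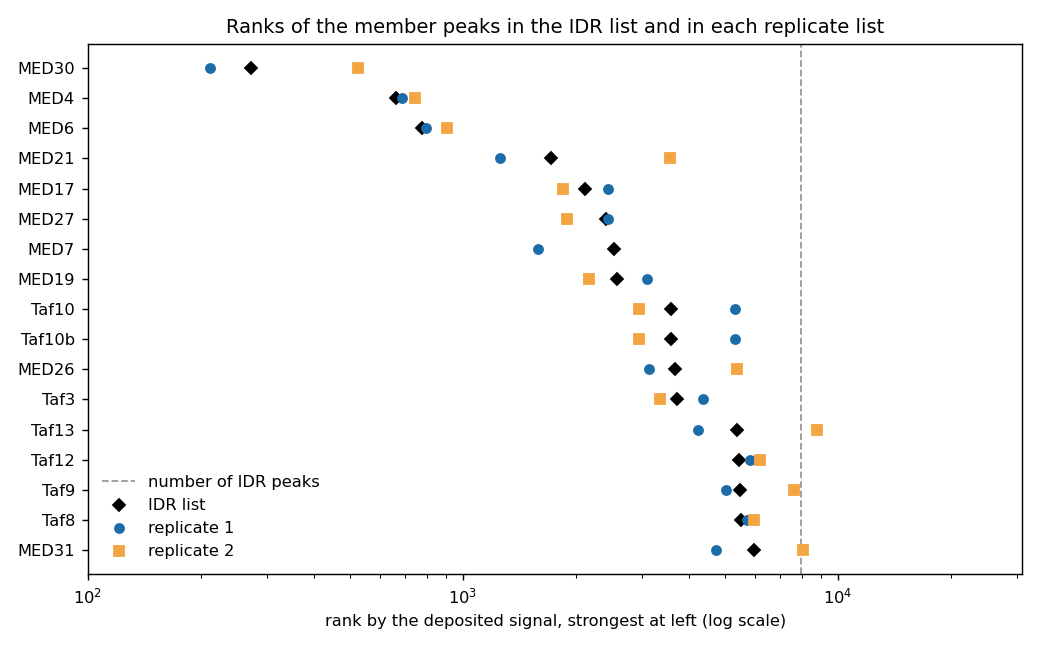
Rank by the deposited signal of each subunit gene's peak in the IDR list, in replicate 1 and in replicate 2, on a log axis with the strongest at left. MED30, MED4 and MED6 lie furthest left, with IDR ranks of 273, 664 and 777, and MED31 lies furthest right among the IDR ranks at 5964. MED7 has no point for replicate 2.

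Summits lay close to the starts. The offset had a median of −38 bp (−283 to 23 bp) over the 17 subunit genes, against −54 bp over all 3638 protein-coding genes with a peak. The summit was upstream at 14 of 17 subunit genes (82.4%), against 75.9%, and within 100 bp at 14 of 17 (82.4%), against 61.2%. The median distance without regard to side was 38 bp, against 68 bp. In replicate 1 it was 49.0 bp and in replicate 2 it was 27.0 bp (SD of the pair 15.6 bp). No subunit gene had an IDR summit in its body beyond 500 bp from a start. This was not counted over all protein-coding genes, which are longer (median 2166 bp, against 1318 bp), so it is not a trait of the set.

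Most subunit genes share their upstream region with a gene that runs the other way. A divergent neighbour, with its start within 1000 bp upstream on the opposite strand, was annotated for 32 of the 40 (80.0%, 64.4 to 90.9), against 39.6% of all protein-coding genes. With the distance set to 500 bp the shares were 67.5% and 29.6%. The gap between the paired starts had a median of 212 bp for the subunit genes, against 298 bp. The subunit genes are also short, with a median length of 1318 bp, against 2166 bp. Among protein-coding genes as a whole, 36.0% of those with a divergent neighbour had an IDR promoter peak, against 19.6% of those without. Among the subunit genes it was 14 of 32 with a neighbour (43.8%, 26.4 to 62.3), against 3 of 8 without (37.5%, 8.52 to 75.5). The 3 without were MED21, MED26 and Taf9.

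At the 14 genes with both a peak and a divergent neighbour, the summit lay between the paired starts in 9, past the neighbour's start in 3 and past the subunit gene's own start in 2. Taf10 is among the 3 and Taf10b among the 2, with the same summit. These positions were not counted over all protein-coding genes, so they are not a trait of the set. The gap was 19 bp between MED6 and Naa80, 45 bp between Taf10 and Taf10b, and 53 bp between Taf12 and Ho, which encodes heme oxygenase. In such pairs a summit at either start is within the promoter of both, and the lists do not assign it to one of them. At some wider gaps the summit lay clearly nearer to a single start. At MED19 and CG7430 the starts were 415 bp apart and at MED17 and CG12321 365 bp apart, with the summit within 10 bp of the Mediator start in both. Both summits were still within 500 bp of the neighbour's start. At MED27 and elm, 278 bp apart, the summit was instead 5 bp from elm. At MED30 and Rev1, 274 bp apart, it was nearer to Rev1, at 67 bp. Taf3 and CG33941 were 669 bp apart, and no IDR summit lay within 500 bp of CG33941. Taf8 and Mvb12, a gene of the ESCRT sorting machinery, were 656 bp apart with the summit on the side of Taf8. Mvb12 had a different IDR summit within 500 bp of a start of its own.

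A narrow gap did not always come with a peak. Of the 15 subunit genes with a gap under 130 bp, 7 had an IDR peak (46.7%), against 36.7% of the 1196 protein-coding genes with such a gap. The 8 without were MED10 (46 bp to PDCD-5), MED18 (74 bp to Gcna), MED20 (47 bp to Trf), MED23 (71 bp to Gmer), MED28 (88 bp to CG4553), MED9 (115 bp to Nup75), Taf11 (107 bp to und) and Taf2 (79 bp to CalpB). At 2 subunit genes without an IDR peak the neighbour had one: CG4297 next to MED15 and CG43867 next to MED22. The nearest IDR summit lay 560 bp from MED15 but 7211 bp from MED22. The start of CG43867 paired with MED22 is 164 bp from it, so the peak of CG43867 lay at another of its starts.

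**Figure D3:**
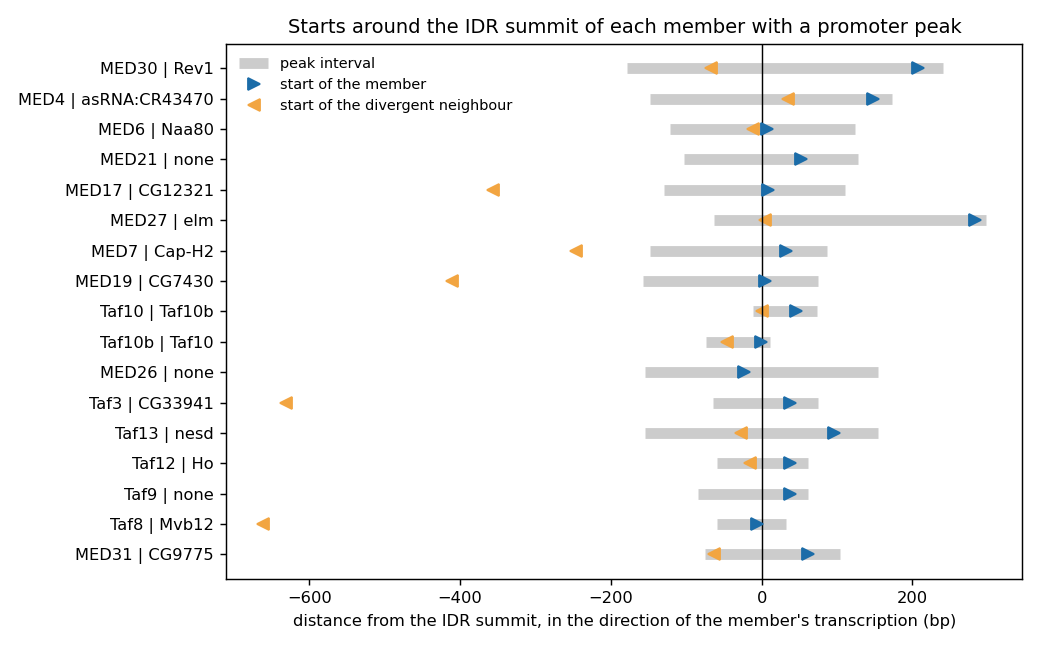
Position of the subunit gene's start and of its divergent neighbour's start around the IDR summit at 0, in bp along the direction of the subunit gene's transcription, with the peak interval in grey. The summit lies between the starts in 9 of the 14 genes that have a neighbour, and within 100 bp of the subunit gene's start in 14 of 17.

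The bases between paired starts are shown for 4 pairs with a peak and for 3 without, since there 1 short stretch serves both genes. They were read from the RefSeq Release 6 genome (dm6), 5′ to 3′ in the direction of the first gene named. Capitals mark any of 7 words that known promoter proteins bind, described after them. The first 4 had an IDR peak and the last 3 did not.
Taf10 and Taf10b, chr2L:2767846-2767889, plus strand: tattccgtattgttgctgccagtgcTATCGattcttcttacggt
Taf12 and Ho, chr3R:11679691-11679742, minus strand: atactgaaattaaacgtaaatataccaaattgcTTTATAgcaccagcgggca
Taf13 and nesd, chr2L:20093850-20093971, minus strand: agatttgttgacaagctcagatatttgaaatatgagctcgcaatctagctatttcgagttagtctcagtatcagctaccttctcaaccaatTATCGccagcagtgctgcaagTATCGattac
MED31 and CG9775, chr3R:4641839-4641962, plus strand: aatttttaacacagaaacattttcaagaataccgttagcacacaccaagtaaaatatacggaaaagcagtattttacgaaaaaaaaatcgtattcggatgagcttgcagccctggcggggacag
MED28 and CG4553, chr3R:25476916-25477002, plus strand: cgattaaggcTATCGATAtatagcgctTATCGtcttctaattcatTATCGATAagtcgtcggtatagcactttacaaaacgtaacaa
MED10 and PDCD-5, chr3L:16232039-16232083, plus strand: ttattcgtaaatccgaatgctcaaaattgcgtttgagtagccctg
MED20 and Trf, chr2L:8072849-8072894, minus strand: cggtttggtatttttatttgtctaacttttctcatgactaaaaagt
Between Taf10 and Taf10b lies a single CGATA, read here as its complement, and its centre was 29 bp from the summit. Another CGATA lies outside that stretch, with its centre 4 bp from the summit. Taf13 and nesd (nessun dorma), a gene required for cytokinesis, are separated by a stretch with 2 CGATA words, the nearer 67 bp from the summit. None of the 7 words lies between MED31 and CG9775 although a peak is there. The stretch of MED28 and CG4553 holds 2 copies of the full DRE, TATCGATA, yet no summit lay within 500 bp of MED28 in any of the 4 lists.

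The 7 words are short stretches that known proteins bind. TATCGATA is the DNA replication-related element (DRE), bound by the factor DREF at promoters of many growth genes. Its core CGATA, contained in the full word, is also bound by the boundary protein BEAF-32. GGTCACACT is bound by the promoter factor M1BP, and GAGAG by the product of Trl. CAGCTG is an E-box, a site of basic helix-loop-helix proteins. TATAAA is the TATA box, contacted by Tbp. CAGGTA is bound by Zelda, the pioneer factor of the early embryo. Both strands were searched. Within 100 bp of the summit, CGATA occurred in 10 of the 16 peaks at subunit genes (62.5%), against 42.9% of 2935 promoter peaks of all protein-coding genes. TATCGATA occurred in 3 (18.8%), against 9.64%, at MED17, Taf3 and MED26. TATAAA occurred in 5 (31.2%), against 20.7%, and CAGCTG in 3 (18.8%), against 16.1%. GAGAG occurred in 2 (12.5%), against 28.2%, at MED30 and MED4. GGTCACACT occurred in 1 (6.25%), against 5.86%, and CAGGTA in 0, against 4.12%. With 16 peaks these counts are small, and each match describes the letters and not a bound site.

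The 3 DRE matches near summits are shown in the 60 bases upstream of the start nearest the summit, on the strand of the gene in dm6, with TATCGATA in capitals.
MED17, chr3R:18189012-18189071, plus strand: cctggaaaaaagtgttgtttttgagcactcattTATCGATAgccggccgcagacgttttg
Taf3, chr4:466829-466888, minus strand: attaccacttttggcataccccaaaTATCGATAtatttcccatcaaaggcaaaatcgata
MED26, chr4:787615-787674, minus strand: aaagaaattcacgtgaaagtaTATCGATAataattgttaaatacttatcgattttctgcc
The centre of the word was 14 bp from the summit at MED17, 6 bp at Taf3 and 58 bp at MED26. Over the window from 250 bp before to 50 bp after 1 start per gene, TATCGATA occurred in 8 of the 40 subunit genes, against 9.23% of all protein-coding genes. Of those 8 genes, 3 had an IDR peak: MED17, MED7 and Taf3. MED18, MED25, MED28, MED8 and MED9 carried the word without an IDR peak. Of all protein-coding genes with the word 37.2% had an IDR peak, against 25% of those without it.

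GGTCACACT, picked from the 7 words in these same data, was the one in which subunit genes with and without a peak differed most in number. It occurred in the same window in 12 of the 40, against 6.07% of all protein-coding genes. Of the 12, MED19 had an IDR peak and 11 did not: MED8, MED10, MED11, MED15, MED20, MED22, MED23, MED24, Taf1, Taf4 and Taf5. Of the 28 subunit genes without the word, 16 had an IDR peak. Over all protein-coding genes the order was the other way, with an IDR peak at 36.0% of the 847 genes with the word, against 25.4% of those without. The contrast depended on the list. In the joint list MED8, MED15, MED19 and Taf4 had a promoter summit, and the other genes of the 12 had none. With a summit in any of the 4 lists counted, 7 of the 12 had one. Over all protein-coding genes that was 60.1% of those with the word and 47.7% of those without. The word lay wholly after the start in 9 of the 12 subunit genes, between positions 3 and 26 counted from 0 at the start, wholly before it in 2 and across it in 1. The sites are shown with 8 bases on each side, on the strand of the gene in dm6, with the word in capitals, at MED19 first and then at genes without an IDR peak.
MED19, chr3L:17846477-17846501, minus strand: cgcaatgcGGTCACACTggttcgcg
MED11, chr3L:18745839-18745863, plus strand: cgtgttctGGTCACACTgttatctg
MED20, chr2L:8072825-8072849, minus strand: tcagcactGGTCACACTggacgctt
MED24, chr3L:8191279-8191303, plus strand: gatacctcGGTCACACTgagcgctg
MED22, chrX:928124-928148, plus strand: aaatacgtGGTCACACTgtacatat
Taf1, chr3R:6646896-6646920, plus strand: ccatcgacGGTCACACTtacgcgtg
Taf4, chr3L:16113215-16113239, plus strand: tcgccaacGGTCACACTgcacaact
At MED19 the centre of the word was 17 bp from the summit. Over all 12 subunit genes with the word it reads in the direction of the gene in 11 and as its complement in 1, MED10, whose site is not among those shown.

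**Figure D4:**
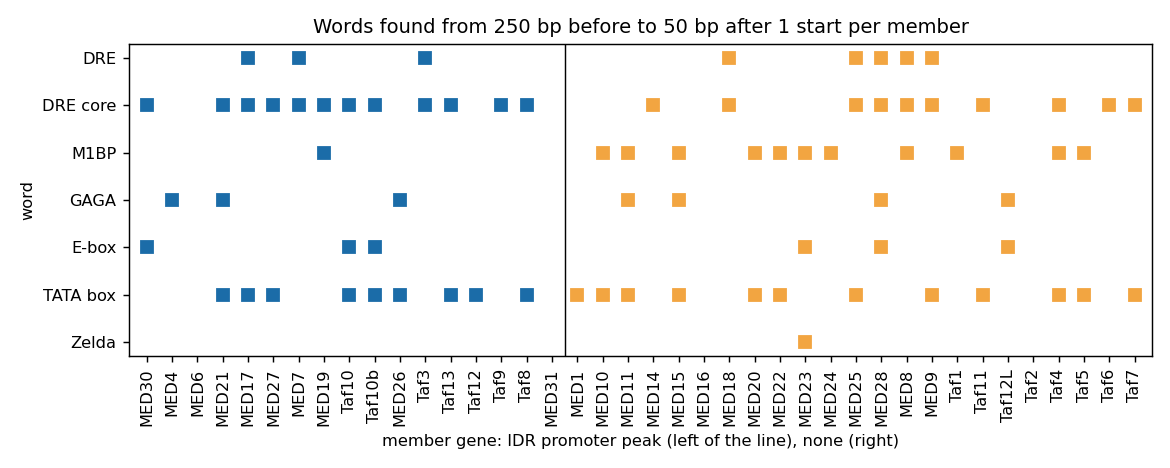
Words found from 250 bp before to 50 bp after 1 start of each subunit gene, with the 17 genes that had an IDR promoter peak at left, in order of rank, and the 23 without at right, in order of name. A filled square means that the word is present. M1BP is marked at 1 gene at left and at 11 at right, and DRE at 3 at left and 5 at right.

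Of the 23 subunit genes without an IDR peak, 17 had no summit within 500 bp in any of the 4 lists, and 6 had one in another list. Of all 13945 protein-coding genes, 3638 had an IDR promoter peak and a further 3119 had a promoter summit in another list only. MED8 had a joint-list summit of rank 8377 at 60 bp upstream, with ranks of 7341 in replicate 1 and 11613 in replicate 2. Taf4 had one of rank 8766 at 59 bp after the start, with ranks of 11726 in replicate 1 and 5995 in replicate 2. These lay just outside the 7944 IDR peaks. MED15 had a summit of rank 28852 in the joint list and of rank 23485 in replicate 1. MED10, MED23 and Taf5 had a summit in replicate 2 alone, of rank 3895, 9782 and 6477. Within replicate 2 the summits of MED10, Taf4 and Taf5 ranked above those of Taf9, MED31 and Taf13, which are in the IDR list. All 6 of these genes carry GGTCACACT, and so do 5 of the 17 in no list. Of the 3119 protein-coding genes with a promoter summit in some list but not in the IDR list, 6.54% carry it. The nearest IDR summit to a start of the 23 genes was between 560 bp (MED15) and 106992 bp (Taf12L) away, with a median of 7211 bp.

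By chromosome arm, an IDR peak was present at 3 of 7 subunit genes of 2L, against 24.2% of all protein-coding genes of that arm. On 2R it was 0 of 5, against 25.9%, on 3L 4 of 12, against 27.9%, and on 3R 6 of 10, against 23.9%. On X it was 2 of 4, against 28.6%. On chromosome 4 it was 2 of 2, where 57.5% of the 80 protein-coding genes had one. The 5 genes of 2R are MED8, MED9, MED16, MED23 and Taf5, and 3 of them, MED8, MED23 and Taf5, had a summit in 1 or more of the other lists.

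Genes of the same machinery under other names were counted in the same way. An IDR promoter peak was present at 17 of the 40 genes with MED or Taf symbols, at 15 of 58 such other genes (25.9%, 15.3 to 39.0) and at 26.1% of all protein-coding genes. Giving each summit to its nearest start only left 11 of the 40, against 10 of the 58. Of the 6 other Mediator and TFIID subunits only skd, the MED13 of the kinase module, had an IDR promoter peak. Its strongest summit, of rank 1550 and offset −459 bp, was 22 bp from a start of Pdss2. Another, weaker IDR summit was nearest to the start of skd itself. The 4 paralogs of TAFs that act in the testis had none. Of the 2 relatives of Tbp, Trf2 had one (rank 2512). Of 8 general factor genes 3 had one, the strongest at TfIIA-S, a subunit of TFIIA (rank 349, signal 989), and the one at TfIIB was nearer to Bug22. Of 9 TFIIH genes 2 had one, at Ssl1 (rank 24) and at Mat1 (rank 1853). The summit at Ssl1 lay 204 bp from that gene and nearer, at 99 bp, to the start of Chro, the gene of the chromatin protein Chromator. SAGA, which shares several TAFs with TFIID, had 5 of 17, at Gcn5 (rank 1303), its histone acetyltransferase, and at Ada2b, Ada3, e(y)2 and not, though the summits at e(y)2 and not were nearer to another gene. RNA polymerase II had 3 of 12, at Polr2F (rank 415), Polr2H (rank 515) and Polr2E (rank 1992), and the summit at Polr2H lay 6 bp from a start of CG11247.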

How the data were processed

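Peaks were analysed from the 4 lists deposited for ADD1-GFP ChIP-seq in whole embryos, with coordinates on dm6 per the labels. The choice of aligner, peak caller and filters is not given in the sources used here. No control library was analysed. Without read numbers the sequencing depth is unknown. Peak signal is a value the authors deposited on an unstated scale, and it served only to rank peaks within a list. The deposited −log10 q-value was not used for ranking, because 6739 of the 7944 IDR peaks share its highest value. The summit was taken from the deposited offset within each peak. The lists of the replicates and the joint list all stop at 30000 peaks, a length that says nothing of how much was bound.

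Starts were taken from the Ensembl release 115 annotation (BDGP6.54) of the same assembly, with pandas 2.3.3 and scipy 1.17.1 in Python 3.11.15. A promoter was 500 bp on each side of any start. A replicate peak was matched within 200 bp of an IDR summit. A replicate's strongest peaks are its 7944 of highest signal. The assignment of summits to starts was tested on simulated summits. The search for divergent pairs was tested on 1 chromosome against a direct count. Shares carry exact Clopper-Pearson 95% intervals. With 1 group no test between groups exists, and none was made over genes. The subunit genes, the other gene lists, the modules and the words were chosen with earlier results of these data known. All members with a peak are named, and in the other lists the strongest. Alternatives were promoters of 200 and 1000 bp, each replicate alone, the stronger 3972 IDR peaks, the nearest start only, 1 start per gene, any overlap of the interval, neighbours within 500 or 2000 bp or protein-coding only, and words within 50 or 200 bp.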

Additional observations from a re-analysis of the deposited data

How the results depend on the processing

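The count of 17 subunit genes with an IDR promoter peak (all protein-coding genes: 26.1%) became 11 (21.7%) when a summit counted only for its nearest start. It was 15 (21.7%) with promoters of 200 bp, 18 (29.5%) with 1000 bp, 12 (17.7%) with the stronger 3972 IDR peaks, 16 (24.0%) with 1 start per gene, which drops MED6, and 18 (27.2%) with any overlap of the interval. Each replicate alone gave 17 to 18 genes; replicate 2 alone shared 14 of the 17, without MED7, MED31 and Taf13 and with MED10, Taf4 and Taf5 in addition. The 7 TFIID genes became 3 with the stronger 3972 IDR peaks and 4 with the nearest start only. MED17, MED19, MED21, MED26, Taf10b and Taf3 had a peak in the main count and in all 8 other settings, 18 genes had none in any of them, and 16 of the 40 changed in at least 1. Within 50 bp of the summit GAGAG was in 1 of 16 peaks (all promoter peaks: 14.1%), CAGCTG in 1 (8.79%) and TATAAA in 2 (9.51%). Within 200 bp GAGAG was in 5 (46.3%), TATAAA in 9 (42.9%) and CGATA in 11 (59.0%). No paired analysis was possible because there is 1 group.

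The depth is unknown, so a promoter without a peak is not shown to be unbound. Whole embryos average all cell types. Annotated starts need not be those in use in embryos, and where paired starts lie close together a summit cannot be given to one gene. Intervals over genes treat genes as independent, which neighbours that share a summit are not.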
